A study of Mus musculus with 2 samples.

Results

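Endothelial cells line blood and lymphatic vessels, and a set of 32 genes that these cells express more than most others was examined in ureters of mouse embryos at E16.5 with and without *Pparg* in the ureteric epithelium. *Pparg* encodes a nuclear receptor that acts as a ligand-dependent transcription factor. The 32 genes were chosen by name, with earlier results of these data known, out of 29982 genes with values on the arrays. All 32 had a probe, 45 probes in all, and 31 were well above background and tested, with *Flt4* left out.

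The data were 2 dual-colour oligonucleotide arrays, each with RNA of 1 pool of Pparg-cKO ureters against RNA of 1 pool of control ureters, from embryos of the NMRI outbred strain. Pparg-cKO embryos had the genotype Pax2-cre/+;Pparg(fl/fl), and controls were littermates without the cre, given as Pparg(fl/?), with the second allele not stated. Pax2-cre recombines in the nephric duct and its derivatives, the ureteric epithelium among them, so that vessels lie outside the cells in which it is known to act, and the loxP sites flank 2 exons, the loss of which leaves no functional protein. Ureters were dissected whole, without a sort or gate. Array 1 held pools from female and array 2 pools from male embryos, and the dyes were exchanged between the arrays, so that sex and dye orientation cannot be told apart.

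The dyes leave the direction of the comparison unsettled. RNA A denotes the RNA labelled with AlexaFluor647 (red) on array 1 and AlexaFluor555 (green) on array 2, and RNA B denotes the other. By the dye labels RNA A is the control and RNA B the Pparg-cKO, whereas the direction in which the study describes its changes makes RNA A the Pparg-cKO. All ratios below are therefore log2 of RNA A over RNA B, so that a positive value is a higher level in the control by the labels and in the mutant by the study's direction. RNA in situ hybridization in the study found *Upk1a* and *Upk3b* reduced in the mutant. On arrays 1 and 2 their log2 ratios were -1.42 and -1.22 (*Upk1a*) and -1.67 and -1.71 (*Upk3b*). These 2 genes thus go with the study's direction, in which RNA A is the mutant. The probe for *Pparg* itself gave log2 ratios of 0.60 and 0.71 on the arrays (mean 0.66 ± 0.08, SD, n = 2 arrays). The adjusted p by limma was 0.61. Whether that probe lies in the deleted exons was not examined, so it does not check the labels.

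Vessels grow and are kept by signals that reach endothelial cells from their surroundings. VEGF ligands act on the receptor kinases KDR, FLT1 and FLT4, angiopoietins act on TEK, and factors of the ETS and SOXF families hold the endothelial programme in place. In the ureter, vessels run in the wall outside the epithelium in which Pax2-cre acts.

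None of the 31 endothelial genes tested passed a test of a difference between the RNAs. limma called 0 of them at an adjusted p of 0.05, and 0 had an unadjusted p under that value, against 3.78% of all genes, the smallest being 0.14 for *Esm1*. The limma p adjusted over all genes was 1.00 for each of the 31, whatever its ratio. Over all 21429 genes tested, 0.126% were called with RNA A the brighter and 0.187% with RNA B the brighter. By the filter of the study's methods, read as 1.5-fold the same way on both arrays where the brighter RNA had a signal of 100 or more, 0 members passed, against backgrounds of 0.219% for RNA A and 0.322% for RNA B. With backgrounds this low, a count of 0 among 31 genes does not set the members apart from other genes.

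The intervals show how much change limma can bound with 2 arrays, given the spread of all genes. Of the 8.6 degrees of freedom behind each interval, 7.6 came from that spread and not from the gene's own 2 ratios. The intervals are therefore not bounds from the 2 arrays alone, and the count below was not repeated under the alternatives. For 13 of the 31 members, 41.9%, the 95% interval of the mean ratio lay within 1.5-fold either way (0.58 on the log2 scale), against 52.2% of all genes tested. These 13 were *Kdr*, *Tie1*, *Ptprb*, *Eng*, *Robo4*, *Plvap*, *Ramp2*, *Nos3*, *Rasip1*, *Erg*, *Ets1*, *Sox7* and *Sox17*. For the other 18 the interval reached past 1.5-fold in 1 direction, so a mean difference of that size lay within it. The interval half-widths ran from 0.45 to 0.61, and no member's interval reached below -0.76 or above 0.84.

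The members leaned slightly to RNA A as a list. The median of the mean log2 ratio was 0.11, a 1.08-fold difference, with a lower quartile of 0.01 and an upper quartile of 0.18, beside a median of 0.01 over all genes. The mean ratio was above 0 in 24 of 31 members, 77.4%, against 51.9% of all genes. On array 2 the list median was 0.17 against 0.03 over all genes, while on array 1 it was -0.01 against 0.00. Sex and dye orientation change together between the arrays, so this difference cannot be assigned to either. The ratio was above 0 on both arrays for 8 members, 25.8% against 21.6% of all genes, and below 0 on both for 2 members, 6.45% against 17.4%. In whole ureters, fewer endothelial cells and less RNA per cell cannot be told apart.

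**Figure D1:**
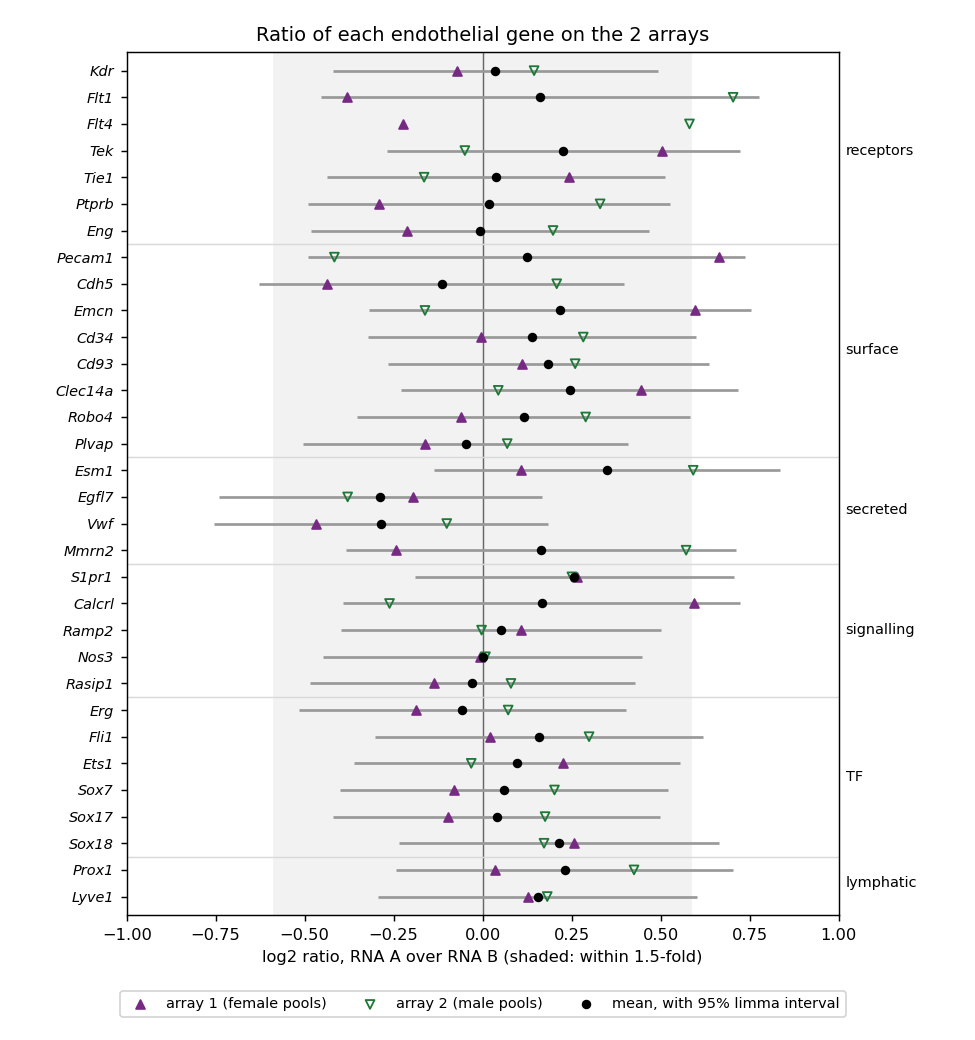
log2 ratio of RNA A over RNA B for the 32 endothelial genes, grouped by role. Triangles are the 2 arrays, black points their mean, grey lines the 95% limma interval, and shading marks 1.5-fold. Every interval crosses 0, and *Flt4* was not tested.

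Among the 6 receptors of VEGF, angiopoietin and BMP9 signals and their partners that were tested, no gene lay on the same side of 0 on both arrays. *Kdr*, the main signalling receptor for VEGFA, had signals of 3601 (RNA A) against 3789 (RNA B) on array 1 and 4037 against 3652 on array 2. The higher value changed from RNA B to RNA A between the arrays, and the mean log2 ratio was 0.04 (95% interval -0.42 to 0.49). *Tie1*, an orphan receptor that works with TEK, had a mean of 0.04 (-0.44 to 0.51), and *Ptprb*, a phosphatase that restrains TEK and KDR, one of 0.02 (-0.49 to 0.53). *Eng*, a co-receptor for BMP9 and TGF-beta, had a mean of -0.01 (-0.48 to 0.47).

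*Tek*, the angiopoietin receptor, had signals of 1589 (RNA A) against 1121 (RNA B) on array 1 and 1379 against 1427 on array 2. It was thus brighter in RNA A on array 1 only, with a mean log2 ratio of 0.23 (-0.27 to 0.72). *Flt1*, which binds VEGFA tightly and limits its action, showed the reverse, with 827 (RNA A) against 1076 (RNA B) on array 1 and 1409 against 865 on array 2. Its ratios of -0.38 and 0.70 gave a mean of 0.16 (-0.45 to 0.78).

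*Flt4*, the receptor for VEGFC on lymphatic endothelium, was at the limit of detection. Its signals were 7.42 (RNA A) against 8.67 (RNA B) on array 1 and 9.29 against 6.21 on array 2. All of its spots were well above background in the green channel of both arrays and none in the red channel, so it gave no ratio between RNAs that could be tested.

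Of the adhesion and surface proteins, *Cdh5*, which encodes the cadherin of endothelial junctions, had the lowest mean ratio. Its signals were 2214 (RNA A) against 3000 (RNA B) on array 1 and 2802 against 2425 on array 2, which averaged -0.12 ± 0.46 on the log2 scale (SD, n = 2 arrays). RNA B was brighter on array 1 and RNA A on array 2. *Pecam1*, an adhesion molecule of endothelial contacts, ran the other way, with 1868 (RNA A) against 1178 (RNA B) on array 1 and 1158 against 1546 on array 2. The 2 junction genes thus had ratios of opposite sign on each array (*Cdh5* -0.44 and *Pecam1* 0.66 on array 1, 0.21 and -0.42 on array 2), and neither mean was distinguishable from 0.

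*Clec14a*, a lectin-like surface protein of sprouting endothelium, had signals of 282 (RNA A) against 207 (RNA B) on array 1 and 249 against 241 on array 2. RNA A was brighter on both arrays, and its ratios averaged 0.24 ± 0.28 (SD, n = 2 arrays). *Cd93*, a related surface receptor, also had positive ratios on both arrays, 0.11 and 0.26. *Emcn*, a sialomucin of capillaries and veins, had ratios of 0.60 and -0.16. The sialomucin gene *Cd34*, *Robo4*, a receptor that steadies vessels, and *Plvap*, a protein of fenestrated endothelium, had mean ratios of 0.14, 0.11 and -0.05.

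The secreted proteins spanned the widest range of means. *Esm1*, a proteoglycan that tip cells at the front of growing vessels release in response to VEGF, had the highest mean of all members. Its signals were 411 (RNA A) against 381 (RNA B) on array 1 and 478 against 317 on array 2. RNA A was brighter on both arrays, by 0.11 and 0.59 on the log2 scale, and the mean of 0.35 ± 0.34 (SD, n = 2 arrays) had a 95% interval of -0.14 to 0.84.

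*Egfl7*, a matrix protein that endothelial cells secrete, had the lowest mean. Its signals were 1646 (RNA A) against 1886 (RNA B) on array 1 and 2577 against 3351 on array 2, so RNA B was brighter on both arrays. The mean log2 ratio was -0.29 ± 0.13 (SD, n = 2 arrays, 95% interval -0.74 to 0.17). Both RNAs of array 2 were brighter than both of array 1 for this probe, a difference between arrays that a ratio within an array does not carry.

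*Vwf*, the clotting factor that endothelial cells store and release, was the other member with a higher value in RNA B on both arrays. Its signals were 74.9 (RNA A) against 103.7 (RNA B) on array 1 and 84.7 against 90.9 on array 2. The mean log2 ratio was -0.29 ± 0.26 (SD, n = 2 arrays, 95% interval -0.76 to 0.19). *Mmrn2*, a matrix protein bound by CLEC14A and CD93, had ratios of -0.24 and 0.57.

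*S1pr1*, the sphingosine-1-phosphate receptor that stabilises junctions, gave nearly the same ratio on both arrays. Its signals were 728 (RNA A) against 606 (RNA B) on array 1 and 745 against 626 on array 2, which are ratios of 0.26 and 0.25. The mean of 0.26 ± 0.01 (SD, n = 2 arrays) still had a 95% interval of -0.19 to 0.71, because limma moderates the spread of a gene with that of all genes. *Calcrl*, the adrenomedullin receptor, had ratios of 0.59 and -0.26. *Ramp2*, its partner protein, had ratios of 0.11 and -0.00. *Nos3*, the endothelial nitric oxide synthase, lay at 0 on both arrays (-0.01 and 0.01), and *Rasip1*, a RAS-interacting protein needed for vessel lumens, had a mean of -0.03.

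The 6 transcription factor genes had means between -0.06 and 0.22. *Sox18*, *Sox17* and *Sox7*, the SOXF genes, had mean log2 ratios of 0.22, 0.04 and 0.06, and *Fli1* and *Ets1*, which encode ETS factors, had means of 0.16 and 0.10. *Erg*, a further ETS gene and the lowest of the 6, was dim, with signals of 16.54 (RNA A) against 18.83 (RNA B) on array 1 and 17.14 against 16.30 on array 2. The ratios changed side between the arrays, and the mean was -0.06 ± 0.18 (SD, n = 2 arrays).

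Of the lymphatic genes, *Prox1*, the factor that sets lymphatic identity, was also dim. Its signals were 17.3 (RNA A) against 16.8 (RNA B) on array 1 and 15.4 against 11.5 on array 2. The mean log2 ratio was 0.23 ± 0.28 (SD, n = 2 arrays), and the SD over the spots of the probe was itself 0.49 on array 2. *Lyve1*, a hyaluronan receptor of lymphatic endothelium and some macrophages, was bright, between 1627 and 1924 in the 4 channels, with ratios of 0.13 and 0.18.

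**Figure D2:**
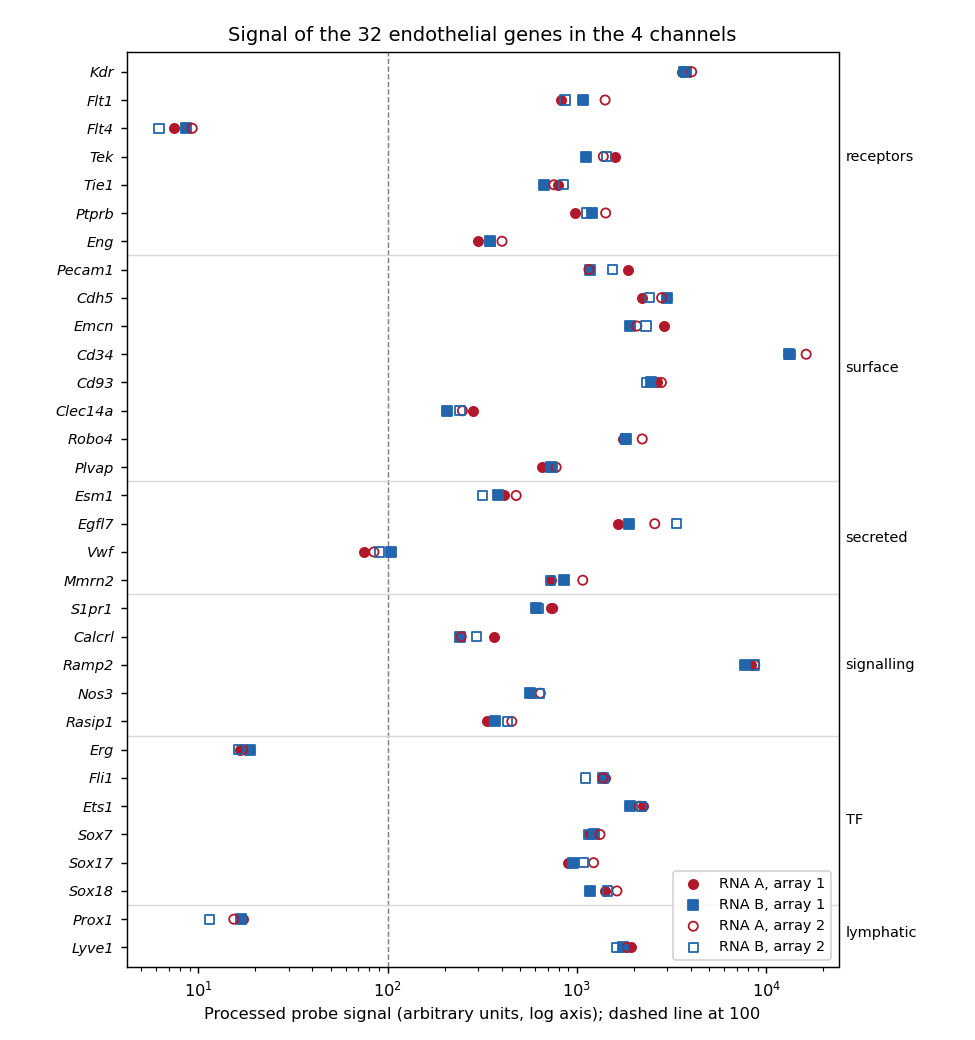
Processed signal of each endothelial gene's probe in the 4 channels, on a log axis in arbitrary units (filled, array 1; open, array 2; circles, RNA A; squares, RNA B). The 4 values of a gene lie close together, *Flt4*, *Erg* and *Prox1* lie near background, and levels of different probes are not comparable.

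The ureter samples held clear endothelial signal. Of the 31 members tested, 28 had a signal of at least 100 in both RNAs on both arrays, among them the defining genes *Pecam1*, *Cdh5*, *Kdr* and *Tie1*.

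Among the members, the part of the ratio that changed sign between the arrays spread more over genes than the mean ratio did. Sex and dye orientation enter that part together. Over the 31 members the SD of the mean log2 ratio was 0.15, and the SD of the part that changed sign between the arrays, which is 0.5 of the difference between the ratios, was 0.24, beside 0.23 and 0.25 over all genes. The ratio was 1.5-fold or more on array 1 alone for *Pecam1*, *Emcn* and *Calcrl*, and on array 2 alone for *Flt1* and *Esm1*, which is 3 and 2 of 31 members, against 7.59% and 7.17% of all genes. No member reached 1.5-fold one way on array 1 and the other way on array 2, against 0.602% of all genes.

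Spots measure the technical error within an array only. Each probe had up to 4 spots per array, and the median SD of the log2 ratio over the spots of a member's probe was 0.03 on either array. The spot ranges of the arrays did not overlap for 25 of 31 members, 80.6%, against a background of 73% of all genes. The arrays hold different pools with exchanged dyes, so a difference beyond the spots is common to most genes.

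By the probe that represents each gene, the members that changed side fell mostly to the green channel. For 14 members, 45.2%, the ratio was below 0 on array 1 and above 0 on array 2, which is brighter in green on both, against 32.6% of all genes. *Flt1*, *Cdh5*, *Mmrn2*, *Ptprb*, *Eng*, *Kdr* and *Cd34* were among these. The other probes of *Flt1*, *Ptprb*, *Kdr* and *Cd34* that were well above background were brighter in red on both arrays. The split between the colours thus depends on which probe represents a gene. For 7 members, 22.6% against 28.4%, it was brighter in red on both arrays. These were *Pecam1*, *Emcn*, *Calcrl*, *Tek*, *Tie1*, *Ets1* and *Ramp2*. The same pattern of signs would follow from a difference between RNAs that is opposite in the sexes, and these cannot be told apart here.

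**Figure D3:**
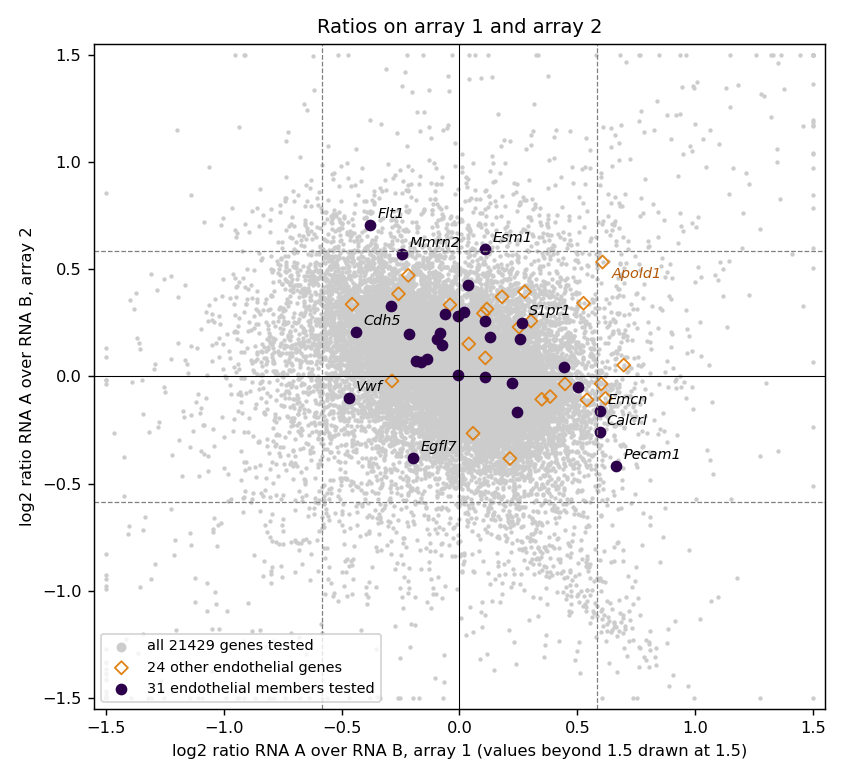
log2 ratio of RNA A over RNA B on array 1 (x axis) and array 2 (y axis) for all 21429 genes tested (grey), the 31 members (dark) and 24 other endothelial genes (open diamonds), with dashed lines at 1.5-fold. No member lies beyond 1.5-fold on both arrays.

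Probes of the same gene did not always fall on the same side. There were 10 members with more than 1 probe well above background, 22 probes in all. For 5 of these genes, *Cd34*, *Flt1*, *Kdr*, *Nos3* and *Ptprb*, the probes of the gene fell on opposite sides of the dye contrast (50% against 40.6% of the 5376 such genes on the arrays). Every probe of a gene read the same 2 RNAs on each array, and for *Nos3* all ratios lay within 0.03 of 0.

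*Flt1* had 3 such probes, and its transcripts are known to include shortened forms that encode a soluble receptor. On the mm9 coordinates of the array design, the probe that represents the gene lies at chr5:148373791-148373850, nearest to the end of the gene, and had ratios of -0.38 and 0.70. The probes at chr5:148446872-148446931 and chr5:148465976-148466035 had ratios of 0.18 and -0.25 and of 0.23 and -0.53, each with the opposite sign on both arrays. Their signals were lower, at most 288 and 20.1 in any channel, and their place in exons or introns was not examined.

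The 2 probes of *Kdr* differed on each array and not in their mean. The probe at chr5:76329309-76329368 had ratios of -0.07 and 0.14, and the probe at chr5:76330395-76330454 had ratios of 0.29 and -0.21. Both means were 0.04. The means of the probes had opposite signs for *Flt1*, *Plvap*, *Ptprb* and *Vwf*. For *Vwf* the second probe, with signals of 7.85 to 9.83, gave a mean of 0.26 against -0.29.

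**Figure D4:**
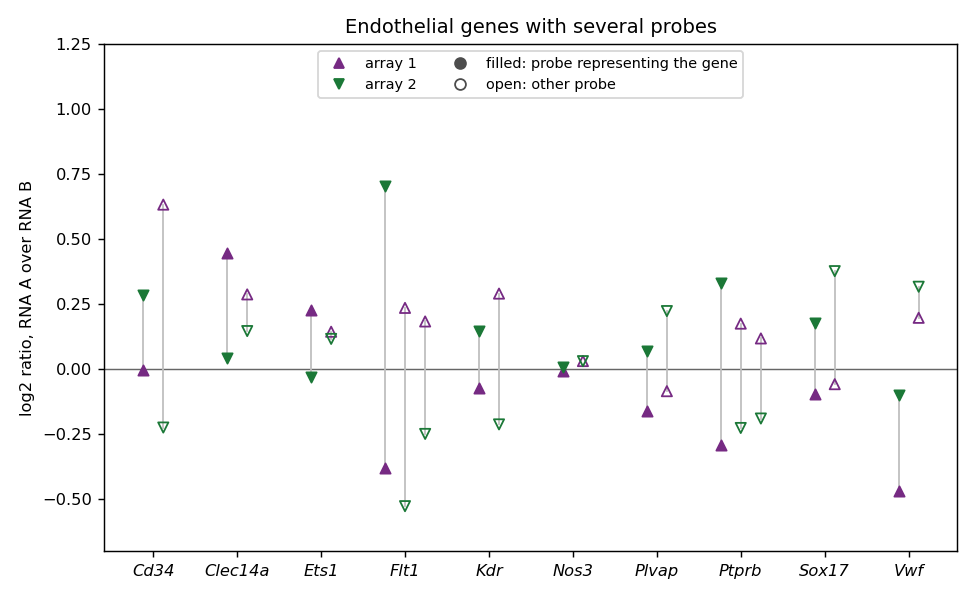
log2 ratio of RNA A over RNA B for each probe of the 10 endothelial genes with several probes well above background (upward triangles, array 1; downward triangles, array 2; filled, the probe that represents the gene). In *Cd34*, *Flt1*, *Kdr* and *Ptprb* the order of the arrays is turned between probes.

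ETS factors such as those encoded by *Erg*, *Fli1* and *Ets1* bind DNA at a GGAA core, and sequences upstream of the members were searched for 1 common form of it, AGGAAG, on both strands. RefSeq promoter sequences (GRCm38.p6) were found for 16 of the 32 members, with 21 start sites, and the 250 bases before each start were read. The letters occurred before 11 of the 21 start sites (52.4%), in 10 genes, and before 29.5% of all 32851 start sites. For the 8 genes with a match within 100 bases of a start, the match nearest to it is shown because these genes include an ETS gene and receptors described above. Each is written 5′ to 3′ on the gene's strand with the match in capitals, which read CTTCCT where it lies on the opposite strand.
Calcrl, chr2:84425310-84425349, minus strand: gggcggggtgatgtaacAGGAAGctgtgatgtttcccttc
Egfl7, chr2:26581017-26581056, plus strand: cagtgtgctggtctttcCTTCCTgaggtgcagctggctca
Emcn, chr3:137340968-137341007, plus strand: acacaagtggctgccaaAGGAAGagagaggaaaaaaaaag
Eng, chr2:32646572-32646594, plus strand: gcccggccccttctctaAGGAAG
Erg, chr16:95459366-95459405, minus strand: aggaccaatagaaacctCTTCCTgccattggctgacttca
Flt1, chr5:147726042-147726081, minus strand: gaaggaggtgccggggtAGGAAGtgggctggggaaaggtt
Rasip1, chr7:45627429-45627468, plus strand: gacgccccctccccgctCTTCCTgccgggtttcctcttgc
Robo4, chr9:37401906-37401945, plus strand: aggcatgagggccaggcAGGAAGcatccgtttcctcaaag

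The window of *Eng* ends at the start site. The mean log2 ratios of these 8 genes ran from -0.29 for *Egfl7* to 0.22 for *Emcn*, and none passed the test. A match describes letters in this window, and binding was not measured here.

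Ligands and signalling partners were also without calls. Of 19 such genes, 18 were tested (not *Gdf2*, the gene for BMP9), 0 were called and 0 passed 1.5-fold on both arrays, and the median of the mean log2 ratio was 0.01. The ratio was above 0 on both arrays for 4 genes and below 0 for 2. The genes farthest from 0 were *Angpt1*, the gene for the activating ligand of TEK, with ratios of 0.28 and 0.22, and *Adm*, the gene for adrenomedullin, with 0.21 and 0.26. *Vegfa* had signals of 2310 (RNA A) against 2537 (RNA B) on array 1 and 2531 against 3101 on array 2, a mean of -0.21 (95% interval -0.67 to 0.24).

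A second list of 25 endothelial genes that are no members leaned to RNA A more evenly over the arrays. Of its genes, 24 were tested, *Exoc3l2* having no probe. Its median was 0.23 in the ratios of array 1, 0.19 in those of array 2 and 0.20 in their means (log2). The ratio was above 0 on both arrays for 11 genes (45.8%) and below 0 on both for 1. limma called 0 of them, and 1 of 24 had an unadjusted p under 0.05, where 3.78% of all genes did.

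That gene was *Apold1*, an endothelial gene induced by stress and activity. Its signals were 556 (RNA A) against 365 (RNA B) on array 1 and 613 against 424 on array 2. RNA A was brighter on both arrays, at an average log2 difference of 0.57 ± 0.05 (SD, n = 2 arrays), and the ratio on array 2 fell short of 1.5-fold. The adjusted p by limma was 0.87. Next came *Gimap6*, a GTPase gene shared with lymphocytes, with 2509 and 1743 on array 1 and 2238 and 1767 on array 2, a mean of 0.43 (95% interval -0.02 to 0.89).

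Genes of vessel types showed no calls either. The 10 arterial genes had a median mean log2 ratio of 0.10, with *Hey1* (0.18) and *Unc5b* (-0.17) farthest from 0. The 3 venous genes had a median of 0.10, with *Ackr1* at 0.12 and *Ephb4* at 0.10. No venous gene lay on the same side of 0 on both arrays, and the list median was -0.21 on array 1 and 0.11 on array 2. The 8 further lymphatic genes tested had a median of 0.06, with *Gata2* (-0.38) and *Stab2* (0.35) farthest from 0, and *Ccl21a* had no probe. Their median was -0.19 on array 1 and 0.24 on array 2. *Gata2* had ratios of -0.78 and 0.02, and *Stab2* of 0.21 and 0.50.

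Markers of urothelium, smooth muscle and hepatocytes had list medians further from 0 than the endothelial genes, and their part in the endothelial values was not tested. The list median of the mean log2 ratio was -0.61 for 7 urothelial genes, among which *Upk3b* and *Upk1a*, genes of the urothelial plaque, were called as brighter in RNA B (means -1.69 and -1.32, adjusted p = 0.02 and 0.045 by limma), and *Upk3b*, *Upk1a* and *Upk3a* passed the filter of 1.5-fold on both arrays. Over 9 alternatives the adjusted p by limma ran from 0.0005 to 1.00 for *Upk3b*, which lost its call in 4, and from 0.0038 to 1.00 for *Upk1a*, which lost it in 5. In the same list *Krt5*, a basal keratin, had ratios of 0.26 and 0.67, and *Trp63*, a basal cell factor, a mean of -0.11. The list median was -0.64 for 4 smooth muscle genes, all 4 below 0 on both arrays, with *Myh11* at -0.80 and *Cnn1* at -0.72 and none called. It was -0.22 for 5 epithelial genes, none called, with *Krt18* (-0.55) and *Krt8* (-0.39) farthest from 0 and the means of *Epcam* (0.09) and *Krt19* (0.00) not below it. Hepatocyte genes had a median of 0.11 on array 1 and -1.36 on array 2, with *Ttr* (-1.02) and *Afp* (-0.76) farthest from 0 and none called. The study counts *Ttr* among genes of the superficial cells of the urothelium, so here it does not mark hepatocytes alone.

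Markers of kidney tissue were not all detected. Of the 4 nephron genes tested the median was -0.40, and *Slc34a1* was called as brighter in RNA B (adjusted p = 0.01 by limma). Its signals were 30.8 and 37.2 in RNA B and only 6.20 and 4.20 in RNA A, where 0.25 of its spots on array 1 were well above background, so the size of its ratio is not given. Over 8 alternatives its adjusted p ran from 0.0062 to 1.00, with the call lost in 4. *Umod* and *Slc12a1* were not well above background. Of 5 podocyte genes *Nphs1* was not well above background. The median of the 4 podocyte genes tested was -0.26, and *Wt1* had signals of 1652 to 2611. *Podxl*, with a mean of -0.31, belongs to this list and is also expressed in endothelium.

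The cells of the vessel wall and of the blood stayed nearer to 0. The 7 mural genes had a median of -0.00, with *Higd1b* at 0.38 and *Notch3* at -0.19 farthest out. The 6 red blood cell genes had a median of 0.03, with *Epb42* at -0.12. Of 5 megakaryocyte genes, 3 were tested, with a median of -0.04, *Gp9* at -0.26 and *Pf4* at 0.24, while *Itga2b* and *Gp1ba* were not well above background. The 7 myeloid genes leaned to RNA A as the endothelial genes did, with a median of 0.17 and a ratio above 0 on both arrays for 6 of 7, *C1qb* and *Aif1* both having a mean of 0.38. None of these genes was called.

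Summed over its tested probes, the endothelial list reached 55809 (RNA A) against 53942 (RNA B) on array 1 and 62269 against 56855 on array 2. For smooth muscle the sums were 72674 against 90213 on array 1 and 66004 against 117892 on array 2. Such sums weigh bright probes most.

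**Figure D5:**
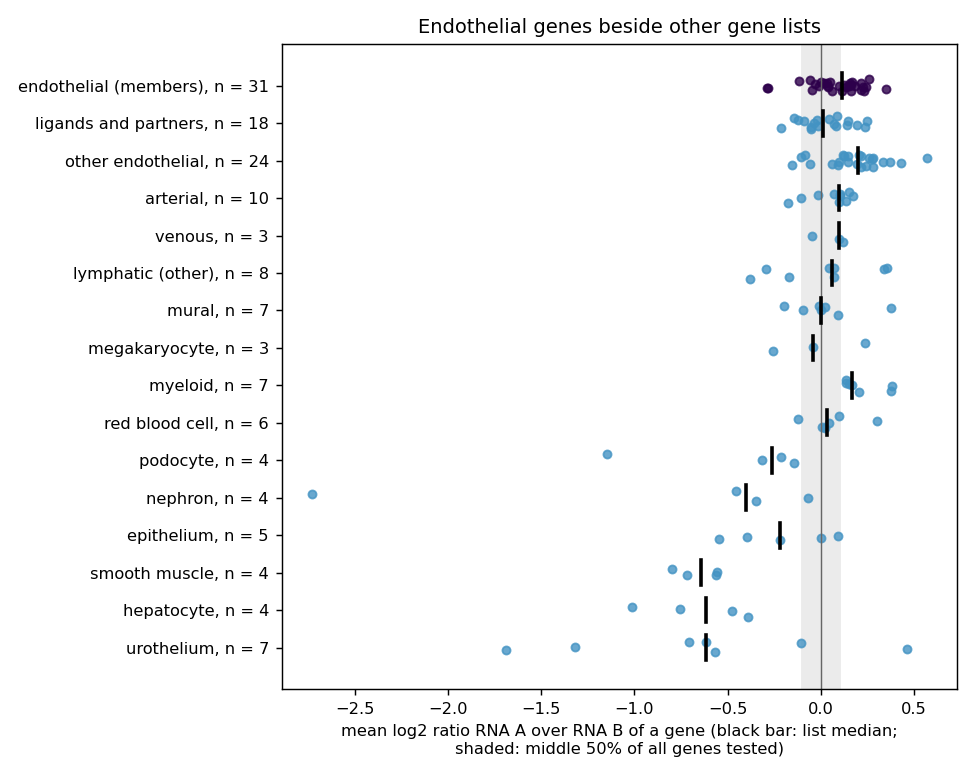
Mean log2 ratio of RNA A over RNA B for each gene tested (points), by list, with the list median as a black bar and the middle 50% of all genes shaded. The endothelial median is 0.11, and urothelial, smooth muscle and hepatocyte medians lie near -0.6.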

How the data were processed

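RNA of pooled, sex-sorted ureters was compared on 2 Agilent dual-colour arrays on the same slide and scan. The labels of the second channel give embryonic day 14.5, whereas titles and protocols give 16.5, which was used. Each array had 1 pool per genotype, so p-values measure the spread between 2 arrays whose pools differ in sex.

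The deposited intensities came, per the file headers, from Agilent software (Feature Extraction 10.7.3.1) and were background-subtracted and dye-normalised within the array (linear and LOWESS). The ratio of a dim or dye-biased probe depends on that step. The deposited log10 ratios were only used to check dyes. A deposited table from the authors holds each probe's ratio as a fold with a sign, with no direction given, and served as an alternative. It correlated with RNA A over RNA B on both arrays (r = 0.997 over 18540 probes), and its median was 1 in each column.

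Control and flagged spots were left out, and log2 intensities were averaged per probe. A gene was represented by its brightest probe and tested if at least 0.5 of the probe's spots were well above background on both arrays in 1 RNA. limma 3.58.1 (R 4.3.3) was fitted with an intercept to the 2 ratios of 21429 genes, with Benjamini-Hochberg adjustment. An exact sign-flip test of 2 arrays cannot go below p = 0.5. Intervals are limma's at 95%.

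Members and lists were chosen with earlier results of these data known. Named are *Pparg*, all members, and of each other list the genes called or past 1.5-fold on both arrays, otherwise the 2 farthest from 0, except some that are not reported here. *Vegfa*, *Kdr*, *Tek*, *Flt1*, *Pecam1*, *Flt4* and further genes given by channel were added for their role after their values had been seen. Alternatives were normexp (offset 50) with loess, centring, loess of the processed signals, the authors' table, the mean over probes, other filters, an intensity trend, no replicate block, other member sets and leaving out an array.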

Additional observations from a re-analysis of the deposited data

How the results depend on the processing

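No endothelial gene was called by limma, and none passed 1.5-fold the same way or in opposite ways on both arrays, under any alternative that could give the count. The list median stayed between 0.09 and 0.12 over 9 alternatives and was 0.17 without replicate 1 and -0.01 without replicate 2. Members with a mean above 0 numbered 22 to 25, 22 without replicate 1 and 15 without replicate 2. With array 2 or array 1 alone, 2 and 3 members passed 1.5-fold. Members brighter in RNA B on both arrays fell to 1 with a signal of at least 100, which leaves out *Vwf*. The second endothelial list had a median of 0.19 without replicate 1 and 0.23 without replicate 2. The mean ratio changed sign for *Nos3* with normexp and loess (-0.031), loess (-0.0083) and centring (-0.012), for *Ptprb* with normexp and loess (-0.0014) and the mean over probes (-0.015), and with the mean over probes for *Flt1* (-0.0061) and *Plvap* (0.011). Calls over all genes, 27 for RNA A and 40 for RNA B, were 1 and 0 with normexp and loess, 8 and 20 with loess, 0 and 0 with the authors' table or no filter on dim probes, and 1 and 0 with no replicate block (the 4 channels without the array). The cause was not tested. The replicate pairing changed no call among the members. With 1 array there is no residual spread, so limma gave no value. Signal over background limits *Flt4*, *Erg* and *Prox1*.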
